A study of Mus musculus with 6 samples.

Results

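The genes described here encode the constitutive 26S proteasome of mouse. They were taken from a deposited table of gene levels by symbol: Psma, Psmb, Psmc or Psmd followed by a number, leaving out the immunoproteasome genes Psmb8, Psmb9 and Psmb10. Of 24493 genes in the table, 36 matched, and 34 of these reached a level of 1 TPM in at least 2 of the 6 libraries. TPM is a transcript level corrected for length and scaled to the same total in every library. The 34 genes were 7 alpha and 7 beta subunits of the 20S core, 6 ATPases, 3 non-ATPase subunits of the base, 8 lid subunits, and 3 assembly chaperones of the base that share the Psmd symbol. The 2 genes left outside by level were Psma8, listed at 0 in every library, and Psmb11, at 0.281 to 0.664 TPM. The lowest genes inside were Psmd9, at 12.7 to 16.5 TPM, and Psmd10, at 13.7 to 17.8 TPM.

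RNA sequencing had been done on KPCY cells, tumour cells from a genetically engineered mouse model of pancreatic ductal adenocarcinoma with a yellow fluorescent label, of strain C57BL/6 in every group. The cells were transduced with a non-targeting short hairpin RNA (shNT, n = 2 libraries), with shPthlh oligo #1 (hairpin 1, n = 2) or with shPthlh oligo #2 (hairpin 2, n = 2), and the question was how cells with and without Pthlh, which encodes a secreted hormone-like protein (PTHrP), differ. The design names 2 parental clones, but no label ties a library to a clone, so a difference between clones and a difference between hairpins cannot be told apart here. The condition is labelled as tumour cells sorted out of mice while the protocols describe culture in DMEM, and no time or animal age is given.

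The proteasome degrades proteins that carry ubiquitin chains. Its 20S core is a barrel of stacked rings, in which alpha subunits form the outer rings and the gate, and beta subunits form the inner rings that hold the proteolytic sites. The 19S regulatory particle caps the barrel: its base holds a ring of ATPases that unfold substrates together with scaffold and ubiquitin-binding subunits, and its lid holds the deubiquitinase that removes the chains. In the complete complex the subunits stand in fixed proportions, and their transcription is known to be raised together by the factor Nfe2l1 when proteasome activity falls short.

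The 6 libraries were not alike in quality. In shNT library 1 the small-RNA entry Mir6236 took 34.1% of all TPM, against 19.7% to 24.3% in the other libraries, and transcripts under 1000 bases were lower than in shNT library 2 (962 genes, median difference -0.25 on the log2(TPM + 1) scale). The number of reads per library is unknown, because TPM does not keep it. Pthlh itself was at 0.752 and 0.966 TPM in shNT, 0 and 0.106 with hairpin 1, and 0.0423 and 0.263 with hairpin 2. Markers of ductal epithelium summed to 4110 to 4270 TPM in shNT, 4540 to 4610 with hairpin 1 and 3860 to 3950 with hairpin 2, and 7 of 8 reached 1 TPM in at least 2 libraries, Epcam being the exception. With hairpin 1, 4 of the 7 rose and 3 fell, against 32.1% and 18.1% of all genes: Krt19 rose by 1.21 ± 0.05, while Krt18, Krt7 and Cdh1 fell by 0.43 ± 0.07, 0.30 ± 0.05 and 0.34 ± 0.06. The part of this difference in epithelial markers in the results was not tested. Of markers of other cells, the myeloid sum was at most 2.86 TPM with Adgre1 at 0, and the sums for fibroblasts, endothelium, lymphocytes and acinar cells were at most 0.522, 0.105, 0.272 and 1.39 TPM. Cd3e, Cd3g, Nkg7, Lum, Emcn, Cpa1, Cela2a, Pnlip and the 4 islet markers were listed at 0 everywhere.

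The proteasome genes were among the abundant transcripts of these cells. Of the 34, 33 lay above the median of the 11549 genes that passed the same level threshold (14.4 TPM, mean over libraries), and 28 lay in the top 10%. Together they took 0.563% to 0.651% of TPM in a library. Among the 31 subunits, chaperones aside, the mean level ran from 86.9 TPM for the lid subunit Psmd13 to 427 TPM for the beta subunit Psmb4, a 4.91-fold range around a median of 169 TPM. The order of levels was kept between libraries (Spearman correlation across the 31 genes 0.894 to 0.995, as a description, since genes are not replicates). Beta subunits had the highest median level in each library, 238 to 322 TPM, and lid subunits the lowest of the subunit classes, 106 to 128 TPM. Alpha subunits had library medians of 177 to 222 TPM, ATPases of 139.6 to 161 TPM, and the 3 non-ATPase base subunits of 201 to 209 TPM.

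**Figure D1:**
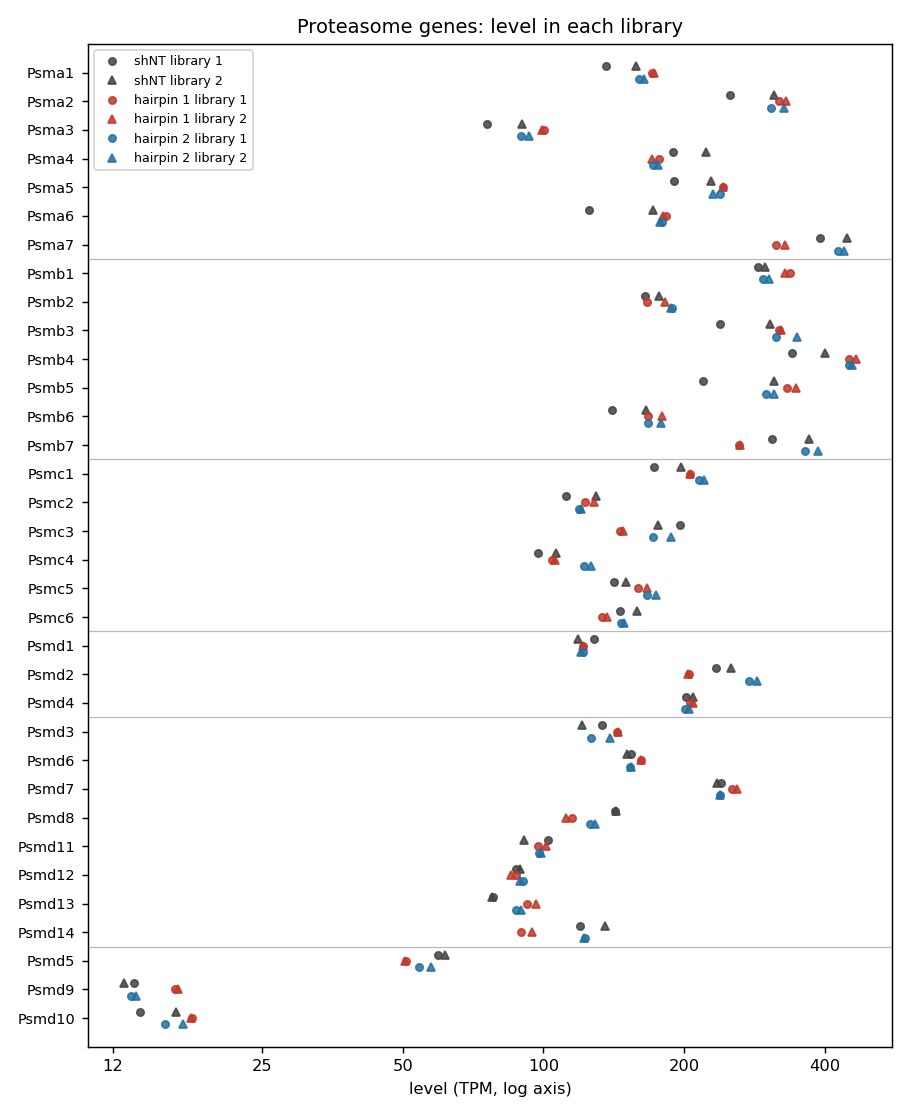
Level of each of the 34 proteasome genes in each of the 6 libraries (x axis: TPM, log axis), grouped by alpha, beta, ATPase, non-ATPase base, lid and chaperone from top to bottom. Colours mark the hairpin and symbols the library. Psmd5, Psmd9 and Psmd10 lie below the 31 subunits, and shNT library 1 lies below shNT library 2 for all 14 core subunits.

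The first comparison set the mean of both hairpin groups against shNT. Of the 34 genes, 6 rose and 4 fell (limma on log2(TPM + 1), Benjamini-Hochberg adjusted p below 0.05), while 27.3% of all genes tested rose and 12.1% fell. The members' median change was 0.10 and that of all genes tested was also 0.10. The genes that rose were the core subunit Psmb4, the ATPases Psmc1, Psmc4 and Psmc5, the lid subunit Psmd13 and the chaperone Psmd9. Those that fell were the alpha subunit Psma4, the lid subunits Psmd8 and Psmd14, and the chaperone Psmd5. The rises depended on the scale: after median-ratio scaling, which moved the median of all genes from 0.10 to 0.01, 0 genes rose and 7 fell, against 15.1% and 18.7% of all genes. On that scale Psma4, Psma7, Psmc3, Psmc6, Psmd5, Psmd8 and Psmd14 fell. With shNT library 1 left out, 3 rose and 7 fell (23% and 10.6% of all genes). With shNT library 2 left out, 16 rose and 5 fell (30.2% and 12.2%). With any 1 of the 4 hairpin libraries left out, 1 rose and 1 or 2 fell (15.5% to 16.9% and 7.8% to 8.55% of all genes). After each chromosome's median was subtracted (chromosome centring), 0 rose and 3 fell (12.3% and 13.9%). In bulk RNA, fewer cells of one kind and less RNA per cell cannot be told apart.

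With hairpin 1 alone, 6 genes rose and 8 fell, where 32.1% of all genes rose and 18.1% fell. The median was 0.10, beside 0.11 for all genes. Median-ratio scaling gave 2 rises and 10 falls (22.7% and 24.3% of all genes), the omission of shNT library 1 gave 8 and 9 (31% and 17.8%), and the omission of shNT library 2 gave 16 and 8 (34.9% and 18.6%). Omitting any 1 hairpin library left 2 rises, with 2 or 3 falls without a library of hairpin 1 (all genes 19.3% to 20.4% and 12.2% to 13.2%) and 7 falls without one of hairpin 2 (27.6% and 15.9%). With hairpin 2 alone, 1 gene rose and 0 fell, where 6.62% of all genes rose and 3% fell, with a median of 0.08 beside 0.09. At an unadjusted p under 0.05 limma gave 8 genes in that comparison. With a pseudocount of 0.5 it also gave 8 of the 34, beside 3732 of all 11549 genes. On median-ratio scaling 0 rose (2.11% of all genes) and 2 fell (4.8%). Chromosome centring gave 0 rises and 1 fall (1.56% and 2.96%). The omission of shNT library 1 gave 1 and 1 (5.89% and 2.46%), and the omission of shNT library 2 gave 15 and 1 (18.1% and 4.87%). Without any 1 hairpin library the members' median with hairpin 2 was 0.0411 to 0.1334, beside 0.0805 to 0.0934 for all genes. Both hairpin comparisons share the shNT libraries, so their values are given side by side and are not independent of each other. With hairpin 1, 18 of the 34 genes lay wholly above shNT and 9 wholly below, against 48.8% and 28.1% of all genes. With hairpin 2 it was 12 and 3, against 45.5% and 16.3%. With 2 libraries a group such a separation is thus common, and for the single genes below it is a description only.

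**Figure D2:**
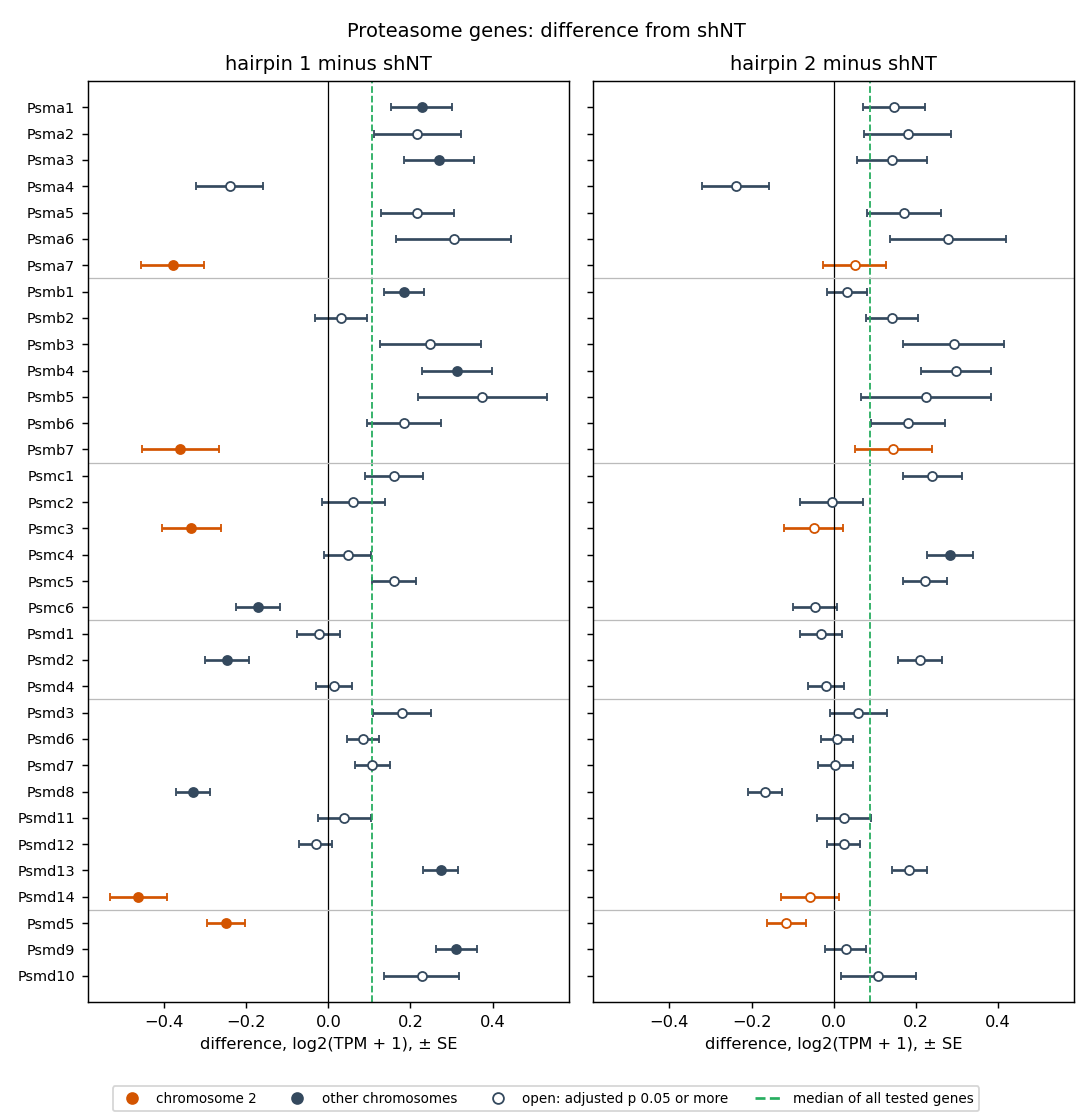
Difference from shNT of each proteasome gene (x axis: log2(TPM + 1) scale, bars: standard error from limma), hairpin 1 on the left and hairpin 2 on the right. Filled points passed an adjusted p of 0.05, orange points lie on chromosome 2, and the dashed line is the median of all tested genes. With hairpin 1 the 5 chromosome 2 genes lie between -0.46 and -0.25; with hairpin 2 they lie between -0.12 and 0.15.

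The sequence upstream of 4 of the genes that fell is given here. Shown are the bases before the transcription start of Psmd14 and Psma7, the pair on chromosome 2 with the largest falls with hairpin 1, of Psma4, which was lower by the same amount with either hairpin, and of Psmd8, which fell against the direction of its neighbourhood. They come from RefSeq promoters of build GRCm38.p6, ended before the first annotated transcribed base and written 5′ to 3′ along the gene. Capitals mark matches on either strand to the motifs searched. These were CCAAT (the CCAAT box), GGGCGG (the GC box of Sp-family factors), CCGGAAG (the core of an ETS-family site), TGANNNNGC (the core of antioxidant response elements), the palindrome bound by nuclear respiratory factor NRF1, AAGATGGCG (bound by YY1) and CACGTG (the E-box). A match on the opposite strand appears as its reverse complement.
Psmd14 (chr2:61711444-61711693, plus strand): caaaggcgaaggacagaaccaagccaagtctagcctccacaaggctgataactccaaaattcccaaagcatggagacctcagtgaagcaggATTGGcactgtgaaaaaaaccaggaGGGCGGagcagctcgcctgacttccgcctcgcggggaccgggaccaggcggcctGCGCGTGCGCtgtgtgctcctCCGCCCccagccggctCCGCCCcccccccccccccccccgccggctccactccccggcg
Psma7 (chr2:180042465-180042714, minus strand): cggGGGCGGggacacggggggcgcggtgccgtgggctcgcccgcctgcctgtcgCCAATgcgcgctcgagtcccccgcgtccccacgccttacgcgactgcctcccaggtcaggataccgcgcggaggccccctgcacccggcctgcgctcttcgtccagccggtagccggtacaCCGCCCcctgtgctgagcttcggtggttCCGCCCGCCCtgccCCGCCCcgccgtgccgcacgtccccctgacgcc
Psma4 (chr9:54950609-54950789, plus strand): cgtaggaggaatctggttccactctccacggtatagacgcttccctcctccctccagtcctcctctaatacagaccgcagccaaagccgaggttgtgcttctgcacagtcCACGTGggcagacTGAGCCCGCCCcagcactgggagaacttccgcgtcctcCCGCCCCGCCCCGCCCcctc
Psmd8 (chr7:29180702-29180923, minus strand): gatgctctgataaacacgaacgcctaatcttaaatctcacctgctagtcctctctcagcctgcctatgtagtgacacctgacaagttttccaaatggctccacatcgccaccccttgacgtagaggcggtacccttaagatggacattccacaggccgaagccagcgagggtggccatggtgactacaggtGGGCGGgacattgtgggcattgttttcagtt
The Psmd14 and Psma7 stretches hold GC boxes (GGGCGG) on both strands and 1 CCAAT each, and the Psmd14 stretch also holds an NRF1 palindrome. In the Psma4 stretch the TGANNNNGC match overlaps a GC box, and neighbouring GC boxes overlap one another, as they do in Psma7. The Psmd8 stretch holds 1 GC box. In the 300-base promoters described next, bases not shown here hold an NRF1 palindrome for Psma4 and a TGANNNNGC match for Psma7 and for Psmd8.

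RefSeq promoters of 300 bases, 250 before to 50 after the start, were found for 28 of the 34 genes (30 entries, none from chromosome 18). Of these entries 36.7% held CCGGAAG, against 8.86% of all 32851 promoters of that length. GGGCGG stood in 60% against 35.7%, the NRF1 palindrome in 20% against 4.6%, TGANNNNGC in 56.7% against 41.3%, and AAGATGGCG in 6.67% against 1.4%. CCAAT, in 36.7% against 37.4%, and CACGTG, in 6.67% against 7.15%, were close to the share in all promoters. The comparison set was every promoter of that length, whatever the gene's level here, while 28 of the 34 genes lay in the top 10% by level. Whether other abundant genes have similar shares was not tested. Entries were counted, so Psmc2 counts 2 times for CCGGAAG and Psma6 2 times for TGANNNNGC, and 6.67% stands for 2 entries. A match is a match of letters and was not tested as a binding site. Among the 4 genes whose sequence is shown, none held CCGGAAG, which was found at Psmd2, Psmc6, Psmd13, Psmc1 and Psma6, among others.

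Alpha subunits form the outer rings. Psma6 (alpha1; chromosome 12, 55384222 to 55418454, plus strand) was at 125 and 172 TPM for shNT, 183 and 180.1 under hairpin 1 and 179 and 177 under hairpin 2. All 4 hairpin libraries lay above both shNT libraries, but the shNT libraries lay further from each other than the higher of them lay from any hairpin library. Its change in the mean of both hairpins, the highest of the alpha class, was 0.29 ± 0.12 (log2 difference ± standard error; adjusted p = 0.108 by limma) and did not pass.

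Psma4 (alpha3; chromosome 9, 54950790 to 54958030, plus strand), whose N-terminal tail takes part in closing the gate of the core, went the other way. Its level was 189 and 222 TPM for shNT, 177 and 170.5 under hairpin 1 and 172 and 176 under hairpin 2, so that all 4 hairpin libraries lay below both shNT libraries. It fell by 0.24 ± 0.07 in the mean of both hairpins (adjusted p = 0.0437, limma). With either hairpin alone the difference was -0.24, at adjusted p = 0.0544 for hairpin 1 and 0.114 for hairpin 2. Without shNT library 1 it fell by 0.36 with hairpin 1 and by 0.35 with hairpin 2, and passed in both (adjusted p = 0.00239 and 0.0233). The call over both hairpins held in 8 of 17 alternative analyses and was lost without any 1 hairpin library (adjusted p 0.101 to 0.124). After each chromosome's median was subtracted, the change over both hairpins was -0.12 (adjusted p = 0.247).

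Psma7 (alpha4; chromosome 2, 180036374 to 180042433, minus strand), the most abundant alpha subunit, parted the hairpins. Its level was 391 and 446 TPM for shNT, 314 and 328 under hairpin 1 and 426 and 439 under hairpin 2. The hairpin 1 libraries lay below all others, at 76.7% of the shNT mean, while those of hairpin 2 lay within the shNT range. Psma7 fell by 0.38 ± 0.08 with hairpin 1 (adjusted p = 0.00967), a call lost without hairpin 1 library 1 (0.0711). Its change with hairpin 2 was 0.05 ± 0.08 (adjusted p = 0.674).

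The other alpha subunits Psma1, Psma2, Psma3 and Psma5 were all above shNT with either hairpin, at 0.22 to 0.27 with hairpin 1 and 0.14 to 0.18 with hairpin 2. Of these Psma1 (0.23 ± 0.07, adjusted p = 0.0492) and Psma3 (0.27 ± 0.08, adjusted p = 0.0436) passed with hairpin 1. Neither passed after median-ratio scaling.

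Beta subunits form the inner rings, and 3 of them carry the proteolytic sites. Psmb5 (beta5; chromosome 14, 54614119 to 54618022, minus strand), which cuts after hydrophobic residues and is the main target of bortezomib, was at 219 and 310.4 TPM for shNT, 331 and 346 under hairpin 1 and 299 and 311 under hairpin 2. Only shNT library 1 was low, and shNT library 2 lay within the range of the hairpin 2 libraries. Its change over both hairpins was 0.30 ± 0.14 (95% interval -0.04 to 0.64, adjusted p = 0.132).

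Psmb6 (beta1; chromosome 11, 70525367 to 70527858, plus strand), which cuts after acidic residues, was at 140.0 and 165 TPM for shNT, 168 and 179 under hairpin 1 and 167 and 178 under hairpin 2. It showed the same single low library, shNT library 1, and a change over both hairpins of 0.18 ± 0.08 (95% interval -0.01 to 0.38, adjusted p = 0.112).

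Psmb7 (beta2; chromosome 2, 38588036 to 38644087, minus strand), which cuts after basic residues, differed from both. It was at 308 and 370.4 TPM for shNT, 262 and 263 under hairpin 1 and 362 and 385 under hairpin 2, and the hairpin 1 libraries lay below all 4 others. With hairpin 1 it fell by 0.36 ± 0.09 to 77.5% of shNT (adjusted p = 0.0235), a call lost without hairpin 1 library 1 (0.108) or 2 (0.104). With hairpin 2 the difference was 0.15 ± 0.09 (adjusted p = 0.326). The catalytic subunits thus did not share a direction with hairpin 1: Psmb7 fell, while Psmb5 (0.38 ± 0.16, adjusted p = 0.0973) and Psmb6 (0.19 ± 0.09, adjusted p = 0.138) were above shNT without passing.

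Psmb4 (beta7; chromosome 3, 94884093 to 94886961, minus strand), a structural subunit whose tail clasps the opposite ring, was the most abundant of the 31 subunits. It was at 339 and 400.2 TPM for shNT, 451 and 465 under hairpin 1 and 449 and 457 under hairpin 2, with no overlap between shNT and hairpin libraries. It rose by 0.31 ± 0.07 over both hairpins (adjusted p = 0.0249) and by 0.31 ± 0.09 with hairpin 1 (adjusted p = 0.0277). After median-ratio scaling the change over both hairpins was 0.21 and did not pass (adjusted p = 0.0732). Leaving out any 1 of the 4 hairpin libraries also ended the call over both hairpins (adjusted p 0.0727 to 0.0842).

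Of the remaining structural beta subunits, Psmb1 passed with hairpin 1 (0.18 ± 0.05, adjusted p = 0.0249), but was at -0.03 after chromosome centring, while Psmb2 and Psmb3 did not pass in any comparison. With hairpin 1, Psmb2 was at 0.03 ± 0.06 and Psmb3 at 0.25 ± 0.12.

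The ATPases of the base form the ring that unfolds substrates and opens the gate of the core. Psmc1 (Rpt2; chromosome 12, 100110154 to 100123405, plus strand), whose tail docks into the alpha ring, was at 172 and 197 TPM for shNT, 206 and 206 under hairpin 1 and 215 and 220.2 under hairpin 2. All hairpin libraries were above both shNT libraries. It rose by 0.20 ± 0.06 over both hairpins (adjusted p = 0.0496), a call lost in 14 of 17 alternative analyses, among them median-ratio scaling (adjusted p = 0.226) and the omission of shNT library 1 (0.0629).

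Psmc3 (Rpt5; chromosome 2, 91054009 to 91066369, plus strand), another ATPase with a gate-opening tail, was at 196 and 175 TPM for shNT, 146 and 148 under hairpin 1 and 171 and 187 under hairpin 2. The hairpin 1 libraries were the lowest, and those of hairpin 2 overlapped shNT. Psmc3 fell by 0.33 ± 0.07 with hairpin 1 (adjusted p = 0.0126), a call lost without either library of hairpin 1 (0.0754 and 0.0651). With hairpin 2 the change was -0.05 ± 0.07 (adjusted p = 0.674).

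Psmc4, Psmc5 and Psmc6 are named here because they passed a test, after their values were seen. Psmc4 (Rpt3) was at 97.4 and 106 TPM for shNT, 105 and 106 under hairpin 1 and 122 and 127 under hairpin 2, and was the 1 gene of the 34 that rose with hairpin 2 (0.28 ± 0.06, adjusted p = 0.0405). That call did not hold after median-ratio scaling (adjusted p = 0.0899) or with a replicate block (0.0563), or without any 1 of the hairpin libraries (0.103 to 0.212). Over both hairpins Psmc4 rose by 0.17 ± 0.05 (adjusted p = 0.0436), and was at -0.0061 after chromosome centring. Psmc5 (Rpt6) rose over both hairpins by 0.19 ± 0.05 (adjusted p = 0.025; 0.167 after median-ratio scaling). Psmc6 (Rpt4) fell with hairpin 1 by 0.17 ± 0.05 (limma adjusted p = 0.0436), a call lost in 8 of 17 alternative analyses. Psmc2 (Rpt1) passed in no comparison (0.03 ± 0.07 over both hairpins).

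The non-ATPase subunits of the base are the scaffolds Psmd1 and Psmd2 and the ubiquitin receptor Psmd4. Psmd4 (Rpn10; chromosome 3, 95032694 to 95042614, minus strand) had similar levels in all groups, at 202 and 209 TPM for shNT, 206 and 209 under hairpin 1 and 201 and 204 under hairpin 2. Its groups overlapped, and its change over both hairpins was -0.00 ± 0.04 (95% interval -0.10 to 0.09, adjusted p = 0.975). Psmd1 (Rpn2) was likewise at -0.03 ± 0.04 (95% interval -0.14 to 0.08).

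Psmd2 (Rpn1; chromosome 16, 20651652 to 20663414, plus strand), which binds ubiquitin and shuttle proteins, moved in opposite directions. It was at 234 and 252 TPM for shNT, 205 and 204 under hairpin 1 and 276 and 286 under hairpin 2, so that hairpin 1 lay below and hairpin 2 above both shNT libraries. With hairpin 1 it fell by 0.25 ± 0.05 (adjusted p = 0.0129). With hairpin 2 the change was 0.21 ± 0.05 (adjusted p = 0.0657). The difference between hairpins was 0.46 ± 0.05 (adjusted p = 0.00232) and passed in 17 of 17 alternative analyses, with adjusted p of at most 0.0451.

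The lid holds Psmd14 (Rpn11; chromosome 2, 61711694 to 61800376, plus strand), the metalloprotease that cuts ubiquitin chains from substrates. It was at 119.5 and 136 TPM for shNT, 89.5 and 94.7 under hairpin 1 and 123 and 122 under hairpin 2. The hairpin 1 libraries lay below all others, at 72.2% of the shNT mean, and the hairpin 2 libraries lay between the 2 shNT libraries. This was the largest fall among the 34 genes, by 0.46 ± 0.07 with hairpin 1 (95% interval -0.64 to -0.29, adjusted p = 0.0038). The call held in 16 of 17 alternative analyses and was lost after chromosome centring (-0.19, adjusted p = 0.0764). With hairpin 2 the change was -0.06 ± 0.07 (adjusted p = 0.606), and over both hairpins Psmd14 fell by 0.26 ± 0.06 (adjusted p = 0.0223).

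Its partner in the lid, Psmd7 (Rpn8), with which Psmd14 forms a dimer, did not fall: Psmd7 was at 239.7 and 235 TPM in shNT and 253 and 259 with hairpin 1 (0.11 ± 0.04, adjusted p = 0.0859). The ratio of these transcripts was not tested.

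Psmd13 (Rpn9; chromosome 7, 140881968 to 140898643, plus strand), a scaffold subunit, was at 78 and 77.7 TPM for shNT, 92.4 and 96.3 under hairpin 1 and 87.5 and 89.7 under hairpin 2. Its shNT libraries were nearly equal and all hairpin libraries lay above them. It rose by 0.23 ± 0.04 over both hairpins (adjusted p = 0.00788) and by 0.27 ± 0.04 with hairpin 1 (adjusted p = 0.00423). After median-ratio scaling the adjusted p was 0.0507 over both hairpins and 0.0262 with hairpin 1. Both calls were lost without small-RNA entries (limma adjusted p = 0.533 and 0.425) and after chromosome centring (0.294 and 0.235).

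Psmd8 (Rpn12; chromosome 7, 29174188 to 29180701, minus strand), the last subunit to join the lid during assembly, is named after its values were seen. It was at 142 and 143 TPM for shNT, 115 and 112 under hairpin 1 and 126 and 129 under hairpin 2, and the 3 groups did not overlap. Psmd8 fell by 0.33 ± 0.04 with hairpin 1 (adjusted p = 0.00207) and by 0.25 ± 0.04 over both hairpins (adjusted p = 0.00578). With hairpin 2 the difference was -0.17 ± 0.04 (adjusted p = 0.0614), which passed after median-ratio scaling (-0.26, adjusted p = 0.0241) and after chromosome centring (-0.31, adjusted p = 0.0228). The call with hairpin 1 held in 17 of 17 alternative analyses, with adjusted p of at most 0.0237. The other lid scaffolds Psmd3, Psmd6, Psmd11 and Psmd12 passed in no comparison on the deposited scale and lay between -0.03 and 0.18 with hairpin 1.

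The 3 base chaperones hold subsets of the ATPases during assembly and are absent from the finished complex. Psmd9 (chromosome 5, 123169413 to 123250131, plus strand) was at 13.3 and 12.7 TPM for shNT, 16.3 and 16.5 under hairpin 1 and 13.2 and 13.5 under hairpin 2, so that hairpin 1 alone stood above the others. It rose by 0.31 ± 0.05 with hairpin 1 (adjusted p = 0.00454) and did not pass with hairpin 2 (0.03 ± 0.05, adjusted p = 0.72). The call with hairpin 1 was lost without small-RNA entries (limma adjusted p = 0.321) and after chromosome centring (0.127). Of the 726 other tested genes on chromosome 5, 44.4% rose with hairpin 1, with a median of 0.21. Psmd5, named after its values were seen, was at 59.5 and 61.6 TPM for shNT, 50.9 and 50.7 under hairpin 1 and 54.3 and 57.4 under hairpin 2. All 4 hairpin libraries lay below shNT, and Psmd5 fell by 0.18 ± 0.04 over both (adjusted p = 0.0199). Its fall with hairpin 1 (-0.25 ± 0.05, adjusted p = 0.00802) turned to 0.03 after chromosome centring (adjusted p = 0.659). Psmd10 (gankyrin) was at 0.17 ± 0.08 and did not pass (adjusted p = 0.144).

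The falls with hairpin 1 were not spread evenly over the genome. All 5 proteasome genes on chromosome 2 fell (Psmd5, Psmb7, Psmd14, Psmc3 and Psma7), with a median of -0.36, and they belong to 4 structural classes and the chaperones: alpha, beta, ATPase, lid and chaperone. Of the 916 other tested genes on chromosome 2, 52.9% fell and 6.22% rose with hairpin 1, with a median of -0.27. The 29 proteasome genes elsewhere gave 6 rises and 3 falls, with a median of 0.16. With hairpin 2 none of the 5 passed and their median was -0.05, beside 0.01 for the 916 other genes of the chromosome.

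Psmd2, on chromosome 16, likewise lay among genes that fell with hairpin 1: the 360 other tested genes of that chromosome had a median of -0.21, and 45.8% fell. Chromosome 9, which carries Psma4, had a median of -0.13 over 649 other genes with hairpin 1 and -0.10 with hairpin 2. After each chromosome's median was subtracted, 0 of the 34 genes rose and 3 fell with hairpin 1 (20.2% and 20.6% of all genes). The 3 were Psmc6, Psmd8 and Psmd12, none of them on chromosome 2.

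Across the 34 genes the change with hairpin 1 followed the median change of the tested genes within 5 Mb on either side, a window chosen after the values were seen. The correlation across genes was 0.83 (Pearson; Spearman 0.701), and 0.645 for the 29 genes outside chromosome 2. With hairpin 2 it was 0.52 (Spearman 0.462). These are descriptions over genes that share libraries, so no p is given. Subtracting the neighbours' median reduced the standard deviation of the 34 changes from 0.238 to 0.134 with hairpin 1, and from 0.137 to 0.117 with hairpin 2.

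**Figure D3:**
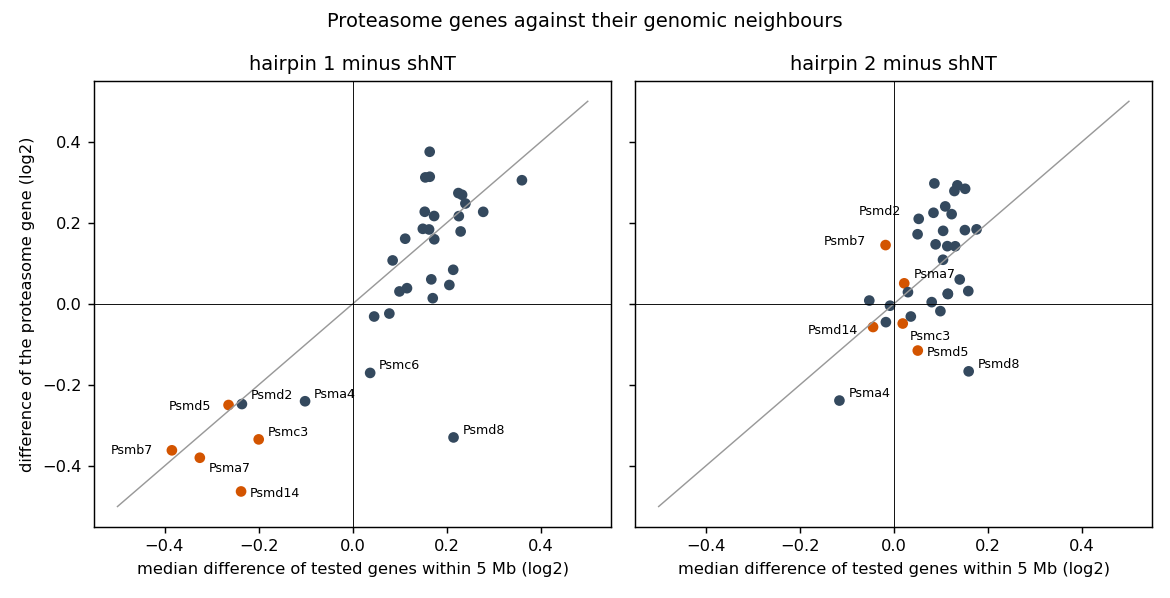
Change of each proteasome gene (y axis, log2) against the median change of the tested genes within 5 Mb (x axis, log2), for hairpin 1 (left) and hairpin 2 (right). The line marks equality, and orange points lie on chromosome 2. With hairpin 1 most genes lie near the line, and Psmd8 lies far below it, at -0.33 where its neighbours' median is 0.21.

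Single genes departed from their surroundings. For Psmb7, Psma7, Psmd5 and Psmd2 the neighbours' medians with hairpin 1 were -0.38, -0.32, -0.26 and -0.24, and the gene minus its neighbours was 0.02, -0.05, 0.01 and -0.01. Psmd14 minus its neighbours was -0.23 (20 genes, median -0.24), and Psmc3 minus its neighbours was -0.13 (42 genes, median -0.20). Psmd8 was the widest departure: its 150 neighbours on chromosome 7 had a median of 0.21 with hairpin 1 and 0.16 with hairpin 2, and Psmd8 minus these was -0.54 and -0.33. For Psmd13, on the same chromosome, the remainder was 0.05 and 0.01. Psmb4 and Psmb5 lay above their neighbours with hairpin 1, by 0.15 and 0.21.

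Comparing the hairpins directly, 7 genes were higher with hairpin 2 and 1 was lower, where 19.9% of all genes were higher and 20.2% lower. After median-ratio scaling 8 were higher and 2 lower (20.3% and 19.5% of all genes). With 1 hairpin library left out, 1 to 3 were higher and 0 or 1 lower (10.2% to 11.8% and 9.89% to 11.3%). The higher genes were Psmb7, Psmd2, Psma7, Psmd14, Psmc3, Psmc4 and Psmd8, and the lower one was Psmd9. Of the 7, 4 lie on chromosome 2, where hairpin 2 exceeded hairpin 1 in all 5 proteasome genes (median 0.41). Of the 916 other tested genes of that chromosome, 51.2% were also higher and 5.24% lower with hairpin 2 (median 0.28). After chromosome centring 4 genes were higher and 0 lower (17.5% of all genes in each direction). These 4 were Psmc4 (0.30, adjusted p = 0.00796), Psmc6 (0.19, adjusted p = 0.0393), Psmd2 (0.18, adjusted p = 0.0451) and Psmd8 (0.23, adjusted p = 0.00958). Of the chromosome 2 genes, Psmb7 was then at 0.22 (adjusted p = 0.104) and Psmd14 at 0.12 (adjusted p = 0.211).

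The shNT libraries disagreed over the core particle. All 14 core subunits were lower in shNT library 1 than in library 2 (median difference -0.24), while 10 of 17 subunits of the 19S particle were lower (median -0.03). The ratio of the median core level to the median 19S level was 1.45 in shNT library 1, 1.84 in shNT library 2, 1.89 and 1.85 with hairpin 1, and 2.11 and 1.92 with hairpin 2. Library 1 of shNT stood apart from the 5 others, and shNT library 2 lay close to the hairpin 1 libraries.

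Core transcripts are the shorter ones, with a median length of 1120 bases against 1591 for the 19S subunits. Across the 34 genes, the difference between the shNT libraries correlated with log transcript length at 0.548 (Pearson; Spearman 0.549, a description, chosen after the values were seen). Among all tested genes the same difference was -0.25 under 1000 bases, -0.07 from 1000 to 2000 bases (2644 genes) and 0.03 at 2000 bases or more (7107 genes). Whether length had a part in the core's values was not tested.

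**Figure D4:**
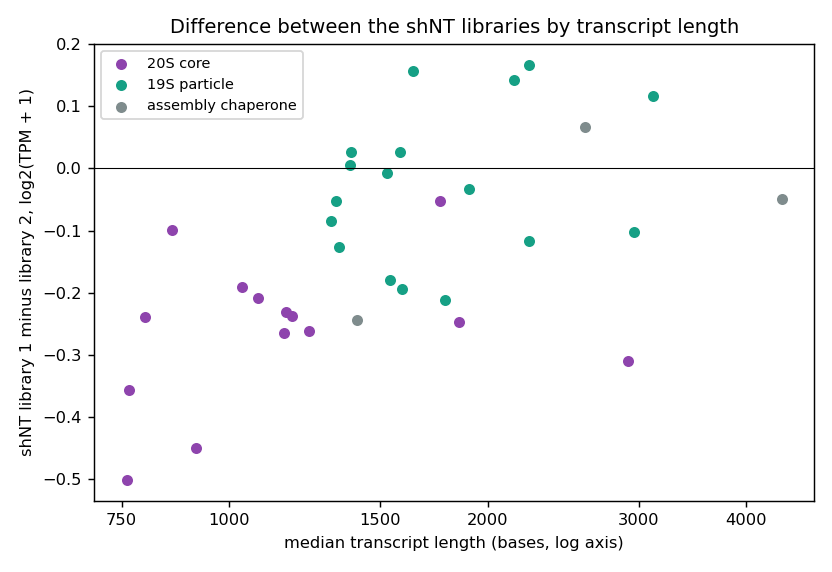
Difference between the 2 shNT libraries (y axis: library 1 minus library 2, log2(TPM + 1)) against median transcript length (x axis, bases, log axis) for the 34 proteasome genes, coloured by particle. All 14 core points lie below 0, and the 19S points lie on both sides.

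Ratios between subunit transcripts do not depend on the factor by which a library is scaled. They are ratios of RNA, not of protein in the complex, and differences by transcript length or chromosome remain in them. The log2 ratio of a subunit to the median of the 31 subunits in the same library is given here with no test. For Psmd14 it was -0.37 and -0.34 in shNT, -0.91 and -0.86 with hairpin 1 and -0.48 and -0.54 with hairpin 2, lowest with hairpin 1. For Psmd8 it was -0.11 and -0.26, -0.55 and -0.62 and -0.45 and -0.46 in the same order, lower with both hairpins than in shNT. For Psma4 it was 0.30 and 0.37, 0.07 and -0.02 and 0.00 and -0.01, again without overlap between shNT and the hairpins.

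Psma7, among the most abundant subunits, stood at 1.34 and 1.38 in shNT, 0.90 and 0.93 with hairpin 1 and 1.31 and 1.31 with hairpin 2, so that its excess over the median was smaller with hairpin 1 alone. Psmb4 stood at 1.14 and 1.22, 1.43 and 1.43 and 1.39 and 1.36, higher with both hairpins. Relative to the median subunit transcript, then, Psma4 and Psmd8 were lower and Psmb4 was higher with both hairpins. Psmd14, Psma7, Psmb7 and Psmc3 were lowest with hairpin 1.

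Of 6 assembly factors outside the subunit list, 5 rose over both hairpins and 0 fell (27.3% and 12.1% of all genes), with a median of 0.41. After median-ratio scaling 3 rose (15.1% of all genes), without shNT library 1 3 rose with a median of 0.26 (23%), and without any 1 hairpin library 1 or 2 rose. Pomp, Psmg1, Psmg2, Psmg3 and Psmg4 were each lower in shNT library 1 than in shNT library 2, and Pomp was called in each of these fits. Pomp, the maturation factor that the core degrades once it is complete, was at 179 and 222 TPM for shNT, 309 and 303 under hairpin 1 and 281 and 289.9 under hairpin 2. The groups did not overlap: Pomp rose by 0.62 ± 0.10 with hairpin 1 (adjusted p = 0.00524) and by 0.52 ± 0.10 with hairpin 2 (adjusted p = 0.0406). Psmg3 rose by 0.62 ± 0.14, Psmg1 by 0.43 ± 0.12, Psmg2 by 0.39 ± 0.08 and AI314180 by 0.19 ± 0.05 over both hairpins (adjusted p = 0.0214, 0.0366, 0.0156 and 0.0288), while Psmg4 was at 0.26 ± 0.12 (adjusted p = 0.122). AI314180 was at 0.33 with hairpin 1 and 0.06 with hairpin 2 (limma adjusted p = 0.00585 and 0.528).

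Of 8 genes that control proteasome transcription, 4 rose and 0 fell over both hairpins. The shares of all genes were 27.3% and 12.1%. On the median-ratio scale the counts were 3 and 1 (15.1% and 18.7%). Nfe2l1, the factor that raises subunit transcription, was at 44.5 and 45.5 TPM for shNT, 52.9 and 53.8 under hairpin 1 and 46.7 and 48.8 under hairpin 2. It rose by 0.16 ± 0.04 over both (adjusted p = 0.0222), a call lost after median-ratio scaling (0.218) and without shNT library 1. Ngly1, the glycanase that Nfe2l1 needs for its activation, was at 5.71 and 5.59 TPM for shNT, 15.6 and 15.9 under hairpin 1 and 6.47 and 6.81 under hairpin 2, and stood out with hairpin 1. There it rose by 1.33 ± 0.06 (adjusted p = 0.000102), while with hairpin 2 the change was 0.20 ± 0.06 (adjusted p = 0.0774). The protease Ddi2, which cleaves Nfe2l1, was at -0.07 ± 0.05 and did not pass. Mafk, a small Maf partner, rose by 0.33 ± 0.06 and Foxo4 by 0.38 ± 0.07 over both hairpins. With hairpin 1 and hairpin 2 in turn, Mafk was at 0.16 and 0.50 and Foxo4 at 0.55 and 0.21. Mafk passed with hairpin 2 alone and Foxo4 with hairpin 1 alone.

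Of the inducible catalytic subunits, Psmb8 was listed at 0 in every library and Psmb9 was at 0.165 TPM or less. Psmb10 was at 20.2 and 25.7 TPM for shNT, 31.1 and 29.5 under hairpin 1 and 32 and 32 under hairpin 2, well under its constitutive counterpart Psmb7. All hairpin libraries exceeded shNT, and Psmb10 rose by 0.43 ± 0.09 over both (adjusted p = 0.0181). Of the activators and inhibitors Psme1, Psme3, Psme4 and Psmf1, Psme1 (0.18 ± 0.04) and Psme4 (0.20 ± 0.04) rose in the mean of both hairpins. The inhibitor Psmf1, on chromosome 2, fell by 0.19 ± 0.05 in that mean. With hairpin 1 and hairpin 2 in turn, Psme1 was at 0.30 and 0.06, Psme4 at 0.25 and 0.14, and Psmf1 at -0.36 and -0.02. None of these passed with hairpin 2 (limma adjusted p = 0.484, 0.116 and 0.776). Neither rise in the mean of both hairpins passed after median-ratio scaling. Psme3 was at 0.08 ± 0.04 and did not pass. Psme2 and its copy Psme2b are left out here, since their reads cannot be told apart with certainty.

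**Figure D5:**
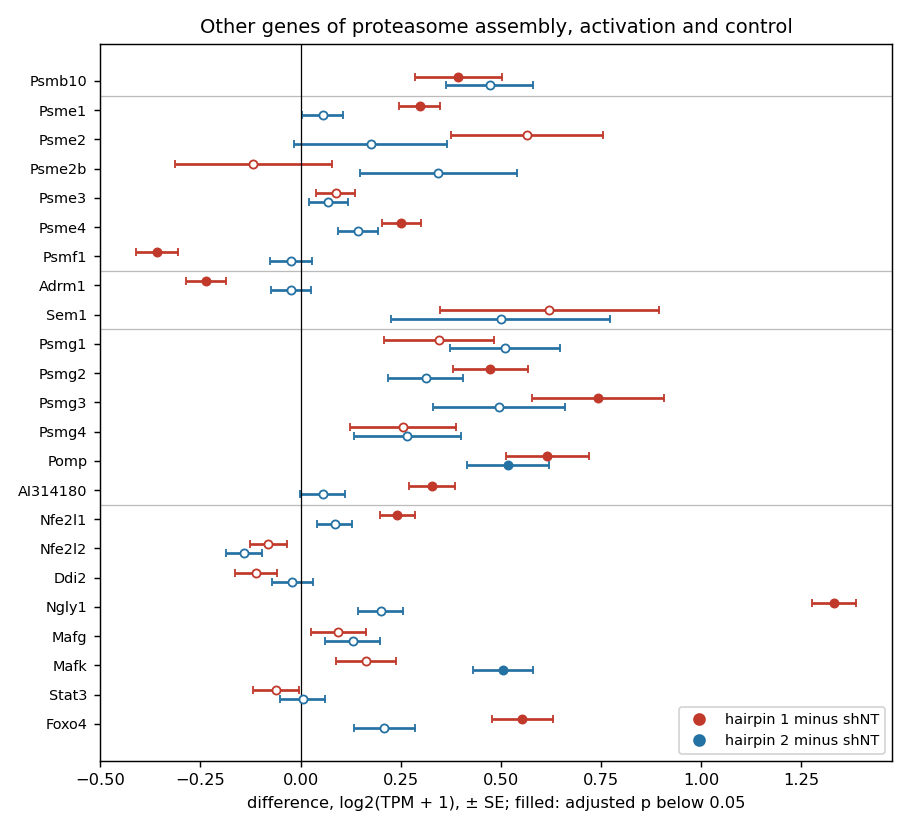
Difference from shNT (x axis: log2(TPM + 1), bars: standard error) of tested genes outside the subunit list, from top to bottom the immunoproteasome, activators and inhibitor, other 19S subunits, assembly factors and transcriptional control. Red is hairpin 1, blue is hairpin 2, and filled points passed an adjusted p of 0.05. Ngly1 with hairpin 1 lies at 1.33, and the assembly factors lie to the right of 0 with both hairpins.

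Around the proteasome, the remaining lists moved little or in part. Of the 2 other 19S subunits, neither passed over both hairpins, and the ubiquitin receptor Adrm1, on chromosome 2, fell by 0.24 ± 0.05 with hairpin 1 (adjusted p = 0.0118). Of 6 ubiquitin and E1 genes 1 rose (Uba6, 0.21 ± 0.05), of 4 deubiquitinases and ligases bound to the 19S particle 0 passed, and of 10 shuttle and segregase genes 1 rose (Ubqln2, 0.45 ± 0.04). Of 9 subunits of the COP9 signalosome, a complex built like the lid, 5 rose and 1 fell over both hairpins, where all genes gave 27.3% and 12.1%. With median-ratio scaling the counts were 3 and 1, where all genes gave 15.1% and 18.7%. Cops6 rose by 0.67 ± 0.07 (adjusted p = 0.00243), while Cops2, on chromosome 2, fell by 0.27 ± 0.04 (adjusted p = 0.00664). Cops2 was at -0.44 with hairpin 1 and -0.10 with hairpin 2 (limma adjusted p = 0.00128 and 0.217). Cops5, the counterpart of Psmd14 in that complex, was at 0.21 ± 0.08 and did not pass (adjusted p = 0.0943).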

How the data were processed

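Titles of the samples gave each library's group and number. Whether the libraries of a group are separate cultures or animals is not stated, so the spread behind each p-value may be technical. Novogene made the libraries from RNA isolated by a Qiagen RNeasy kit, per the labels' protocols. The authors deposited TPM per gene, made with Salmon on mm10, per the submitters' processing notes, which also name R 3.5 and DESeq2 without their role. TPM sums to 1000000 in each library, so reads per library are unknown and counting error cannot be stated.

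The deposited TPM was tested with limma 3.58.1 (R 4.3.3) after the transformation log2(TPM + 1), over 11549 genes at 1 TPM or more in at least 2 of 6 libraries. The model held 3 group means, a variance prior following mean level, and Benjamini-Hochberg adjustment with a threshold of 0.05. This scale understates changes of low genes. On simulated data for the comparison of both hairpins with shNT (11549 genes), 18% of changes of 0.25 were recovered, 58% of 0.5, 90% of 1 and 98% of 2 (log2), and 9 of 11349 unchanged genes were called. In the simulation 11349 of 11549 genes were unchanged, while in the data 27.3% of all genes rose and 12.1% fell. The share recovered among the members may therefore differ and was not tested.

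Genes given in full were the 3 catalytic beta subunits, Psmd14, Psmd4, the highest and lowest change over both hairpins in each of 4 symbol classes, the 6 largest called differences between hairpins, and the 4 largest falls. The members, lists and rule were chosen with earlier results of these data known. Gene positions and transcript lengths came from GENCODE M21 (99.4% of tested genes placed), and promoters from RefSeq on GRCm38.p6. Alternatives were 17 other analyses: scaling, pseudocount, filter, variance prior, replicate block, chromosome centring, omission of small-RNA entries, other sets of samples in the fit, and omission of each library. The 5 Mb window and the length comparison were chosen after the values were seen.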

Additional observations from a re-analysis of the deposited data

Results flagged for a closer look

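For 8 of the 34 genes the test of hairpin 2 against hairpin 1 passed (limma, adjusted p below 0.05), while it passed for 40.1% of the other tested genes, so the count is no result about these genes. Psmb7 differed by 0.51, Psma7 by 0.43, Psmd14 by 0.41 and Psmc3 by 0.29 (adjusted p = 0.00989, 0.00846, 0.00795 and 0.027), and these 4 lie on chromosome 2. Psmd2, on chromosome 16, differed by 0.46 (adjusted p = 0.00232). Psmc4 differed by 0.24 and Psmd8 by 0.16 (adjusted p = 0.022 and 0.0272), both on chromosome 7. Psmd9 differed by -0.28 (adjusted p = 0.00847). Psma7, Psmb7 and Psmd2 had opposite signs against shNT with the 2 hairpins, and the other 5 had the same sign. Leaving out single hairpin libraries ended the call in some cases for each of these genes but Psmd2, whose call held in 17 of 17 alternatives.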

How the results depend on the processing

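With 2 libraries a group, 18% of changes of 0.25 were recovered on simulated data in which few genes changed. That share may differ for the 34 genes, and without read numbers the counting error is unknown. Counts over the 34 genes are given as rises and falls, against 6 and 4 over both hairpins, 6 and 8 with hairpin 1, 1 and 0 with hairpin 2, and 7 and 1 for hairpin 2 against hairpin 1 as reported. The medians as reported were 0.0971, 0.0957, 0.0847 and -0.0105 in that order. Except where genes or libraries were left out, the cause of a change was not tested.

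Median-ratio scaling gave 0 and 7, 2 and 10, 0 and 2, and 8 and 2, with medians of -0.003, -0.0089, -0.008 and -0.0013. Quantile normalization gave 1 and 9, 3 and 9, 1 and 2, and 7 and 1, with medians of -0.0491, -0.0445, -0.0094 and 0.0212; of all genes 15.5% and 18.1%, 22.7% and 23.6%, 2.04% and 4.27%, and 20% and 19.3% were called. Without small-RNA entries the counts were 0 and 8, 0 and 9, 0 and 1, and 6 and 0, with medians of -0.0587, -0.0823, -0.045 and 0.0338 (all genes 8.33% and 16.8%, 14.7% and 24.3%, 1.27% and 3.2%, and 16.7% and 12.5%). Chromosome centring gave 0 and 3, 0 and 3, 0 and 1, and 4 and 0, with medians of -0.0176, -0.0251, 0.0026 and 0.0299.

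With no filter on level the counts were 2 and 1, 5 and 4, 0 and 0, and 2 and 3, in a fit that called 7.04% and 3.93%, 10.6% and 6.97%, 0.959% and 0.543%, and 6.55% and 6.26% of its genes. With a mean of at least 5 TPM they were 6 and 4, 7 and 9, 2 and 0, and 7 and 1 (all genes 31.5% and 13.1%, 36% and 19.4%, 10.2% and 3.58%, and 21.8% each). A variance prior without trend gave 4 and 3, 4 and 7, 0 and 0, and 7 and 1 (all genes 25.8% and 11.6%, 31.2% and 17.8%, 4.09% and 2.5%, and 19.1% and 19.4%). Pseudocounts of 0.1 and 0.5 moved no count but the first, to 5 rises at 0.1. Fits of the compared groups alone gave 2 and 7 with hairpin 1, 0 and 0 with hairpin 2, and 9 and 5 between hairpins (all genes 27.6% and 15.9%, 0.407% and 0.442%, and 23.7% and 25.2%). With the hairpin libraries pooled as 1 group limma called 0 and 0 over both hairpins, and 1 of all 11549 genes; an unadjusted p under 0.05 was reached by 7 of the 34 and by 2567 of all genes.

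The replicate block gave 6 and 3, 7 and 8, 0 and 0, and 7 and 1 (all genes 25.4% and 11.1%, 31.2% and 17.2%, 1.41% and 0.978%, and 18.1% and 18.3%). Differences between libraries 1 and 2 correlated at -0.0439 to 0.0211 between groups. No label says that equal numbers share a culture, animal or day, and a small shared effect could not be seen this way.

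Leaving out 1 library at a time gave 1 to 16 rises and 1 to 7 falls over both hairpins (median 0.0545 to 0.1339), 2 to 16 and 2 to 9 with hairpin 1 (median 0.0642 to 0.1108), 0 to 15 and 0 to 1 with hairpin 2 (median 0.0261 to 0.164), and 1 to 9 and 0 to 5 between hairpins (median -0.0273 to 0.002). A group left with 1 library was taken to vary like the others. The high ends of the rises came without shNT library 2 or, between hairpins, without either shNT library (9 and 5), and the low ends without a hairpin library.

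After chromosome centring 3 calls turned in sign: Psmc4 over both hairpins to -0.0061, and with hairpin 1 Psmb1 to -0.0261 and Psmd5 to 0.0269, none of them past the threshold. The other changes of sign were in values that had not passed as reported. Over both hairpins Psmb7 turned to 0.0273 after centring and 0.0243 without shNT library 2 (-0.2404 without shNT library 1), and Psmd2 to 0.0666 and 0.0329 (-0.07 without shNT library 1). Psmd4 turned to 0.0243 without shNT library 2, 0.0033 without hairpin 1 library 1 and 0.004 without hairpin 2 library 1 (-0.0279 without shNT library 1). With hairpin 1 Psmd4 turned to -0.0906 (median-ratio), -0.1351 (quantile), -0.164 (no small-RNA entries), -0.1153 (centring) and -0.012 (without shNT library 1, beside 0.0402 without library 2), and Psmc1 to -0.0183 (no small-RNA entries) and -0.0196 (centring).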
